A study of Mus musculus with 3 samples.

Results

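Gene expression was compared between BMMCs (mast cells grown in culture from bone marrow) given omega-3 epoxides and the same kind of cells given vehicle. The comparison rests on 2 one-colour arrays of the 3 in the series, 1 for each condition. Its members are the genes read well above background on both arrays, which were 15812 of the 31069 genes on the array (50.9%).

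The cells came from male C57BL/6 mice aged 12 weeks that lacked Pafah2, and the vehicle cells lacked it too. Vehicle was DMSO. The epoxide cells received 300 nM of a mixture of 17,18-EpETE and 19,20-EpDPE, in a ratio of 2 to 3, and the cells of the third array received 0.5 µM GW9662, an antagonist of PPAR gamma. Every treatment lasted 12 h, and 200 ng of RNA was labelled with Cy3 for each array. The labels do not say how many animals gave the cells. With 1 array per condition, no error between cultures could be estimated and no test was possible.

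17,18-EpETE and 19,20-EpDPE are epoxides that cytochrome P450 enzymes make from the omega-3 fatty acids EPA and DHA. Pafah2 is a phospholipase that cleaves oxidised fatty acids, these epoxides among them, from membrane phospholipids. The comparison asks what adding the epoxides changes in cells without it. Mast cells store proteases and histamine in granules and release them when antigen crosslinks IgE on the receptor FceRI, which signals through the Src family kinase Lyn and the kinase Syk. PPAR gamma is a nuclear receptor that binds fatty acid derivatives and acts as a dimer with RXR.

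The identity of the treated arrays is not settled. In the authors' deposited value table the vehicle column matched the vehicle scanner file, with 100% of spots in a constant ratio within a tolerance of 0.001. The column labelled omega-3 epoxides matched the scanner file attached to GW9662 in the same way, and the column labelled GW9662 matched the file attached to the epoxides. The labels do not settle the matter. Values below come from the scanner file attached to each sample, and "epoxides" below means the array labelled so. Where a result turns on it, the log2 ratio of the value table's epoxide column over its vehicle column is given beside it, and both ratios share the vehicle array.

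A level below is the log2 signal of a gene minus the log2 of its array's 75th percentile, and log2 ratios are epoxides minus vehicle. A gene was called when its ratio was at least 2-fold. Levels of different genes were read by different probes and are not compared with each other. In RNA from a whole culture, fewer cells of a type cannot be told apart from less RNA per cell.

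The array held the labelled cell type. Of 14 mast cell markers, 13 were well above background on both arrays, among them the receptor chain genes Fcer1a and Ms4a2, the stem cell factor receptor Kit and the chymase Cma1. The exception was Tpsab1, a tryptase. The summed linear signal of the list was 1036 times the 75th percentile with vehicle, 835.2 with epoxides and 948.1 with GW9662. Of the markers of other cells, those well above background on both arrays were 5 of 15 for neutrophils, 10 of 20 for macrophages and dendritic cells, 5 of 12 for basophils and eosinophils, 11 of 16 for erythroid cells and megakaryocytes, 5 of 14 for fibroblasts and endothelium, and 4 of 14 for T, B and NK cells. The lymphocyte markers Cd3d, Cd3g, Cd8a, Ms4a1 and Cd79a, and the macrophage marker Lyz2, were not well above background on both. The lymphocyte markers Cd3e, Cd4, Nkg7 and Prf1, and the macrophage markers Adgre1, Marco and Lyz1, were. The mast cell marker Hdc was dim, at a log2 level of -4.29 with vehicle and -4.19 with epoxides.

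Pafah2 was read by a probe on mm9 chr4:133982528-133982587 and was well above background on every array. Its log2 level was 0.03 with vehicle, -0.08 with epoxides and 0.07 with GW9662. The deleted stretch is not named in the labels, so this probe does not check the genotype.

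Nearly all genes lay close to their vehicle level. Of the 15812 genes, 89.8% were within 1.5-fold, and the median log2 ratio was -0.07, with quartiles of -0.27 and 0.09. A negative ratio was found for 61.1% of them. Those at least 2-fold higher with epoxides numbered 34 (0.215%) and those at least 2-fold lower 327 (2.07%), which together make 2.28%. Of the 327 lower genes, by mean level of both arrays, 8 were at or above the median of measured genes and 158 were in the dimmest 10%. Probes with no signal of their own were lower too. The 17413 probes not well above background on either array had a median log2 ratio of -0.75 for epoxides over vehicle and of -0.20 for GW9662 over vehicle. The part of this offset in the ratios of dim genes was not tested.

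**Figure D1:**
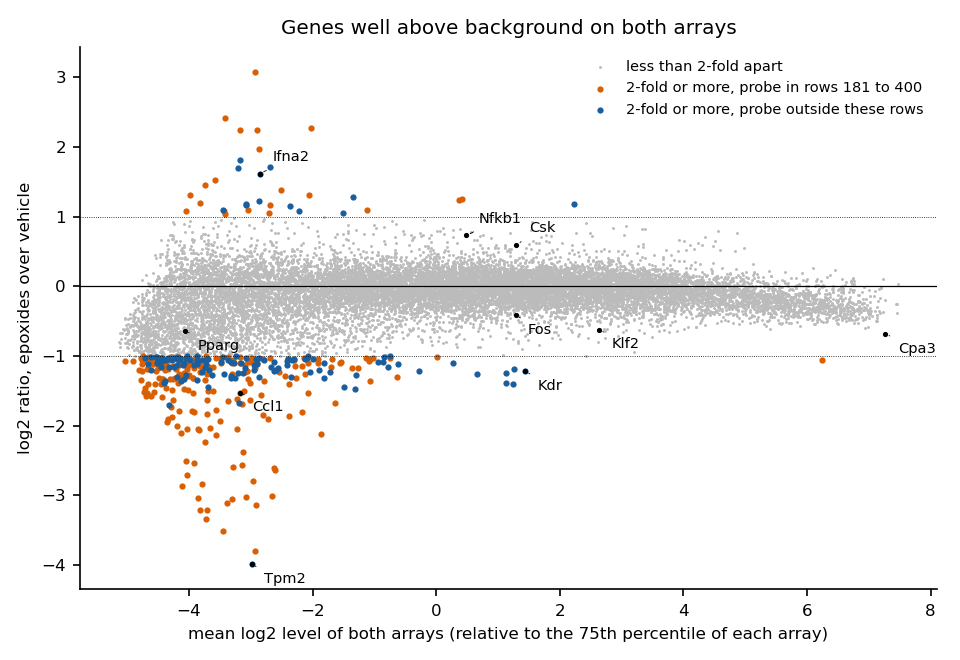
Log2 ratio of epoxides over vehicle (y axis) against the mean log2 level of both arrays (x axis), 1 point per gene, with 15812 genes. Coloured points are the 361 genes at least 2-fold apart, orange where the probe lies in rows 181 to 400 of the array and blue elsewhere, and most of them are dim genes on the lower side.

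Large ratios in both directions were more frequent in some rows of the array, and the ratio itself moved with the base composition of the probes. Rows 181 to 400 of the 532 rows held 209 of the 327 lower genes, 3.09% of 6763 genes there against 1.30% of 9049 elsewhere. They also held 21 of the 34 higher genes, 0.311% against 0.144%. Elsewhere on the array, genes read by GC-rich probes had lower ratios, with a Pearson r of -0.56 between ratio and probe GC content across 9049 genes, which are not independent. Genes whose probe had under 35% GC had a median log2 ratio of 0.28, and those with 55% or more had -0.36. The adjusted ratio below is the ratio after a quadratic fit to probe GC content and to signal was subtracted. With the rows also left out, the r of the ratio so adjusted with GC content was -0.014. The fit sets this r near 0 by construction.

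**Figure D2:**
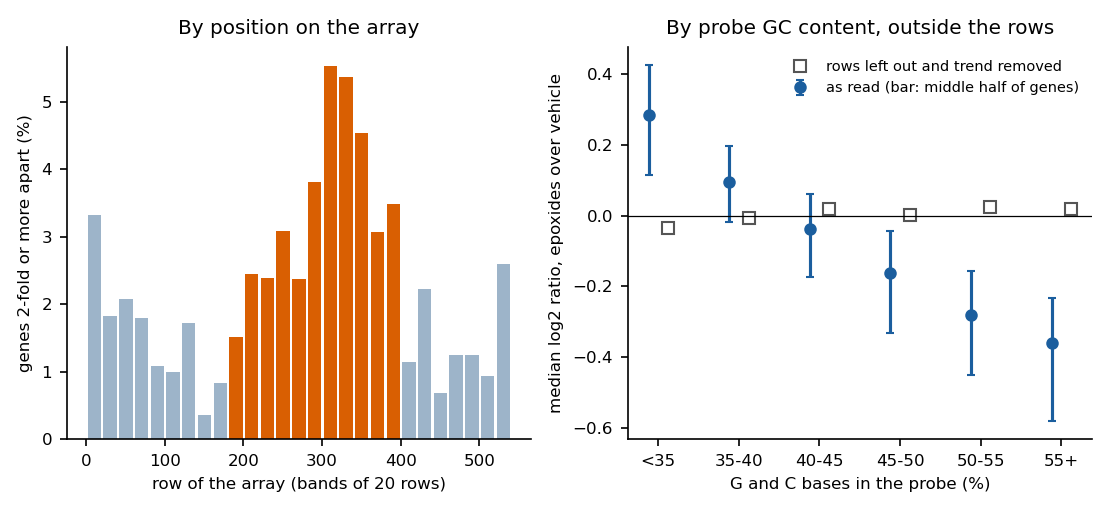
Left, percent of measured genes at least 2-fold apart in each band of 20 rows of the array, with rows 181 to 400 in orange. Right, median log2 ratio of genes outside these rows by the GC content of their probe, with bars from the lower to the upper quartile as read and squares after the rows were left out and the trend removed; it runs from 0.28 under 35% GC to -0.36 at 55% or more as read.

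Some genes gave different ratios by probes of unlike base composition, and the pair described here was chosen after their values were seen. Nfkb1, which encodes the p105 precursor of an NF-kappa B subunit, and Runx1, a blood lineage transcription factor, are each read by 2 probes. The first 30 bases of the 60-base probes for Nfkb1 are shown 5′ to 3′ as the array files give them, with G and C in capitals, and lie on the minus strand of mm9 at chr3:135247621-135247680 and chr3:135254550-135254609.
Nfkb1, 21.7% GC: aaatGCtatttaCttttttattttaCtttt
Nfkb1, 55% GC: tCtatGaCCtGGaCGaCtCttGGGaGaaGG
The AT-rich probe of Nfkb1 read 0.12 with vehicle and 0.85 with epoxides, a log2 ratio of 0.73, which fell to 0.12 after adjustment. The GC-rich probe read -0.94 and -1.02, a log2 ratio of -0.08. For Runx1, the probe with 58.3% GC gave a log2 ratio of -0.61 and the probe with 41.7% GC gave 0.03. Both genes were therefore 1.5-fold or more apart by 1 probe and level by the other. Pairs of probes that went the opposite way were also found. For Gapdh, a glycolytic enzyme, a probe of 53.3% GC gave -0.005 and another of 43.3% GC gave -0.49. These probes are placed on mm9 chromosomes 5 and 8. Its other probes gave -0.33 and -0.28 at 55% GC, -0.30 and -0.29 at 50% GC, and 0.04, -0.07 and -0.31 at 45% GC. The part of base composition in any single gene was not tested.

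Error was read from repeated spots and from pairs of probes. The spread of copies of the same probe on each array gave a technical SD of 0.08 for a log2 ratio (219 probes with copies), which covers spot error only. The SD of the ratio itself among copies of a probe had a median of 0.043, and was 0.14 for the dim probe of Pparg. For 1284 genes outside the rows with a second measured probe, the absolute difference between the log2 ratios of the probes had a median of 0.19 and a 95th percentile of 0.61, or 0.15 and 0.53 after adjustment. Differences of this size between probes are a yardstick for probe disagreement in the single genes that follow. They hold no error between cultures, labellings or hybridisations.

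With the rows left out and the trend removed, 0.232% of genes were at least 2-fold higher and 0.212% lower. Genes that far apart both as read and in that setting numbered 33, of which 12 were higher and 21 lower. Only 8 of the 33 had another probe on the array, and for 7 of those 8 no other probe was well above background on either array. None of the 12 higher genes had a second probe that did so.

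Among the higher genes, Gm9924, a predicted gene, was the only 1 with at least the median signal of measured genes. Its log2 level was 1.63 with vehicle, 2.81 with epoxides and 1.45 with GW9662, so the array labelled epoxides stood alone, 2.27-fold above vehicle. Nkpd1, a predicted P-loop NTPase, read -4.06 with vehicle, -2.35 with epoxides and -4.18 with GW9662, a log2 ratio of 1.70. Ifna2, an interferon alpha, had a log2 ratio of 1.62 by 1 probe, while its other probe was not well above background on any array. Vax2, an eye homeobox gene (1.28), Arl5c, an ARF-like GTPase (1.15), and Atp6v1b2, a subunit of the vacuolar proton pump (1.08), were also higher by single probes. In the value table's epoxide column the log2 ratio was -0.18 for Gm9924, -0.12 for Nkpd1, -0.35 for Ifna2 and -0.044 for Atp6v1b2, and it was 0.17 for Arl5c and 0.07 for Vax2, which stayed positive.

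Among the lower genes, Tpm2, which encodes an actin-binding tropomyosin, had the largest log2 ratio, -3.99. The first 30 bases of its 2 probes, shown because the vehicle reading depends on the probe, lie within mm9 chr4:43532262-43532321 and chr4:43531276-43531335, both on the minus strand, and G and C are in capitals.
Tpm2, row 434: GGaGatGCaGCtGaaGGaaGCCaaGCaCat
Tpm2, row 518: attCCaCCaaaGaGGaCaaataCGaaGaaG
The probe in row 434 read -0.99 with vehicle, -4.98 with epoxides and -4.78 with GW9662. The other read -4.53, -4.54 and -4.42 and was not well above background on vehicle, so it gives no vehicle level to set the first probe against. By the first probe the vehicle array stood apart from both treated arrays, and by the second the high vehicle reading was not seen.

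Fgf6, a fibroblast growth factor, read -1.10 with vehicle, -2.33 with epoxides and -1.38 with GW9662, and its other probe was not well above background on any array. Slc49a4, a solute carrier (-1.70), Fbxw13, an F-box protein (-1.67), Lce3b, a cornified envelope protein (-1.44), and Csrnp3, a nuclear protein (-1.23), were lower by single dim probes. Gm32934, a predicted gene, was lower at a signal above the median of measured genes, 1.86 with vehicle, 0.67 with epoxides and 1.56 with GW9662. Of the 327 lower genes, 11 had another measured probe, which lay in the same direction for 8 and was also 2-fold lower for 1. Of the 34 higher genes, 3 had another measured probe, in the same direction for 1 and 2-fold for 0.

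Kdr, a VEGF receptor, was lower at a signal above the median of measured genes. It was read by 2 probes on the minus strand of mm9, at chr5:76330395-76330454 and chr5:76329309-76329368, whose first 30 bases follow with G and C in capitals.
Kdr, 55% GC: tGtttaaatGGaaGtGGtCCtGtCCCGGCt
Kdr, 35% GC: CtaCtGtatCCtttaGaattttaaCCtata
The GC-rich probe read 2.05 with vehicle, 0.83 with epoxides and 1.74 with GW9662. Its log2 ratio was -1.22 (2.32-fold lower), -0.91 with the rows left out and the trend removed, and -0.31 in the value table's epoxide column. The other probe, spotted 10 times, was not well above background on any array. Of the other VEGF ligands and receptors measured, Vegfa, the main ligand (-0.06), Vegfb (-0.34), Vegfc (-0.09) and the semaphorin receptor Plxnd1 (-0.10) were within 1.5-fold.

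Srcin1, an inhibitor of Src family kinases, was measured on the vehicle array alone. Its probes are shown by their first 30 bases, with G and C in capitals, since the reading of this gene depends on which is used. The first lies at mm9 chr11:97370654-97370713, minus strand, and the files give no position for the second.
Srcin1, row 297: tGGtttttCtaGCCGaGtGttGGGGCttta
Srcin1, row 67: aCtCaGtCttCatCaaGaaGGCtGaGtCCG
The probe in row 297 read -2.26 with vehicle and was well above background, against -7.89 with epoxides and -6.80 with GW9662, where it was not. Set against the dimmest spot that counted as well above background on the epoxide array, it was at least 9.86-fold lower with epoxides. The probe in row 67 was not well above background on any array (-6.81 with vehicle, -7.52 with epoxides and -7.00 with GW9662). Row 297 lies among rows 181 to 400. There, 79 of 18028 spots were well above background on vehicle alone and at least 16-fold above both other arrays, against 4 of 24992 elsewhere. The same count in these rows was 26 for epoxides alone and 61 for GW9662 alone, against 8 and 5 elsewhere. Whether the spot reading of Srcin1 shares their source was not tested.

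**Figure D3:**
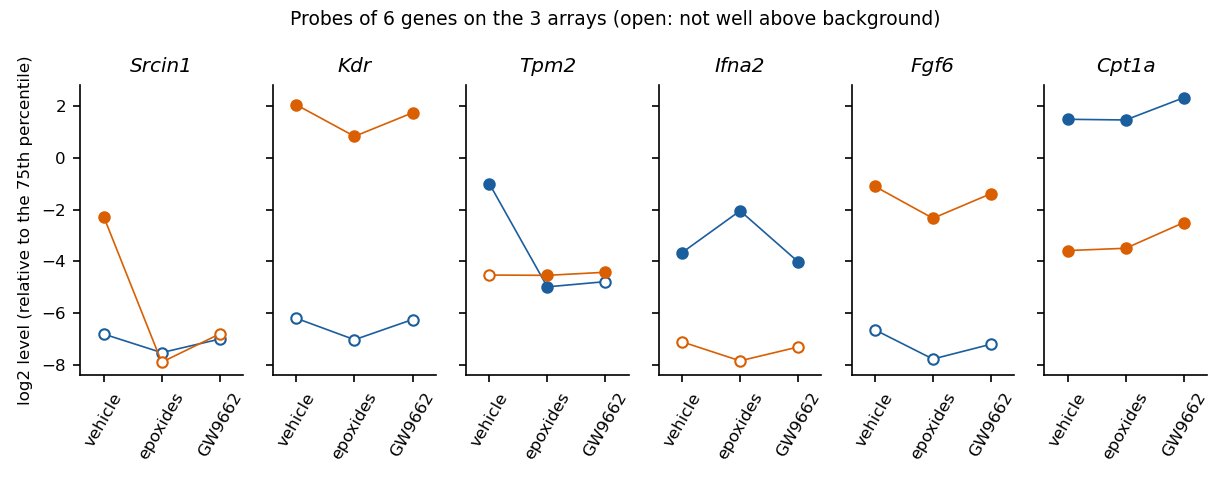
Log2 level relative to the 75th percentile (y axis) of both probes of 6 genes on the vehicle, epoxide and GW9662 arrays, filled where well above background and open where not, 1 colour per probe. In Srcin1, Kdr, Ifna2 and Fgf6 only 1 of the probes was above background, in Tpm2 only 1 of the probes was above background on vehicle, and for Cpt1a both probes were level between vehicle and epoxides.

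The signalling genes of the IgE receptor lay near their vehicle level. Of 33 genes, 31 were measured, 15 with a positive log2 ratio and 16 with a negative one, and the median was 0.00 (0.03 after adjustment) beside -0.07 over all genes. None was called in either direction. Fcer1a, the IgE-binding chain, read 6.93 with vehicle and 6.59 with epoxides, a log2 ratio of -0.34 and of -0.10 in the value table's epoxide column. Fcer1g, the shared gamma chain, had -0.38, which became -0.03 after adjustment. Lyn, the Src family kinase that phosphorylates the receptor, had 0.30, and the signal-amplifying chain gene Ms4a2 had 0.09.

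Of 40 genes encoding inhibitors of the receptor and of Src kinases, 35 were measured and none was called, with a median of -0.11 (0.01 after adjustment) and 15 positive against 20 negative. Csk, the kinase that switches off Src family kinases, was the highest. Its log2 level was 1.0 with vehicle, 1.60 with epoxides and 1.24 with GW9662, a log2 ratio of 0.60 that fell to 0.33 after adjustment for its probe of 31.7% GC. Matk, a kinase of the same kind, had -0.53 with a probe of 55% GC, and -0.22 after adjustment. The inhibitory receptor gene Lilrb4a had -0.45 (adjusted -0.33), and the phosphatase genes Ptpn6 (-0.21) and Ptpre (0.26) lay within 1.5-fold.

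Granule genes had a median below that of all genes as read. Of the 19 protease and matrix genes, 16 were measured, none in rows 181 to 400, and 12 had a negative log2 ratio (61.1% over all genes), with a median of -0.16 (-0.09 after adjustment) beside -0.07 over all genes. The brightest 10% of all genes outside the rows had a median of -0.20, and the part of signal in these ratios was not tested. Cpa3, the mast cell carboxypeptidase, read 7.61 with vehicle, 6.93 with epoxides and 7.19 with GW9662. Its log2 ratio was -0.68 (1.60-fold lower), -0.49 after adjustment and -0.42 in the value table's epoxide column, so the vehicle array was the highest under either assignment. The chymase gene Cma1 (-0.39, adjusted -0.07), the granzyme gene Gzmb (-0.34, adjusted -0.13) and the tryptase gene Tpsg1 (-0.32, adjusted -0.27) also had negative ratios, which quantile normalization brought to -0.14, -0.06 and -0.06, while Tpsb2, another tryptase, was at -0.08 and the core protein gene Srgn at -0.05. Among genes of amine synthesis and storage, Tph1, which makes serotonin's precursor, was at -0.38 (0.04 after adjustment) and Hnmt, which inactivates histamine, at -0.61 with its probe in rows 181 to 400. Ddc, which decarboxylates that precursor, was at 0.39.

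Of 29 genes of granule exocytosis, 27 were measured, with a median of -0.03 and none called. Rab27a, the small GTPase that docks granules, read -1.49 with vehicle, -2.30 with epoxides and -1.79 with GW9662. Its log2 ratio was -0.81 (1.75-fold lower), -0.75 after adjustment and -0.30 in the value table's epoxide column. Its relative Rab27b was at -0.09. The SNARE gene Snap23 was at -0.46 by a probe in rows 181 to 400 and at -0.06 by another probe outside them, which the files place on another chromosome.

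Among growth receptors and lineage factors, 27 of 29 were measured, none was called and the median was -0.06 (0.02 after adjustment). Kit read 5.73 with vehicle and 5.68 with epoxides. Csf2rb, the common beta chain of the IL-3 receptor, was at -0.40 (-0.01 after adjustment), the IL-33 receptor gene Il1rl1 at -0.25, and the lineage factor genes Gata2 at -0.22 and Mitf at 0.12. All measured members but Runx1, described above, were within 1.5-fold.

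Immediate early genes, which growth factor and stress signals switch on within minutes, were mostly on the lower side. Of 30 genes, 25 were measured, 20 with a negative log2 ratio, with a median of -0.16 beside -0.07 over all genes. After adjustment 14 were negative and the median was -0.05, and 12 were negative in both. Of those 12, 7 were at least 0.25 below 0 both as read and adjusted, namely Klf2, Fosb, Dusp1, Fos, Ier3, Egr1 and Btg2. In the value table's epoxide column 19 of 24 were negative, with a median of -0.36. None was called as read.

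Fos, the partner of Jun in the AP-1 factor, was read by 10 spots of 1 probe at mm9 chr12:86817900-86817959. Its log2 level was 1.49 ± 0.06 with vehicle (SD, n = 10 spots), 1.08 ± 0.05 with epoxides and 0.90 with GW9662. The log2 ratio was -0.41 ± 0.03 (SD over 10 spots, from -0.45 to -0.38), and no spot reached 0. Its probe has 35% GC, and genes with probes of 35% to 40% GC outside the rows had a median log2 ratio of 0.09. The adjusted log2 ratio of Fos was -0.57, and both treated arrays were below vehicle.

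Klf2, a Krüppel-like factor, read 2.95 with vehicle, 2.33 with epoxides and 1.89 with GW9662 by a probe in rows 181 to 400. Its log2 ratio was -0.62 (1.54-fold lower), -0.55 after adjustment and -1.06 in the value table's epoxide column. Dusp1, a phosphatase that switches off MAP kinases, read -0.05 with vehicle, -0.58 with epoxides and -0.75 with GW9662, and its adjusted log2 ratio was -0.56. Egr1, a zinc finger factor, read 4.93, 4.66 and 4.31. In each of these genes vehicle was the highest array and GW9662 the lowest.

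Junb and Fosb, which encode further AP-1 subunits, had log2 ratios of -0.57 and -0.56, which shrank to -0.16 and -0.34 after adjustment. Jun was at -0.25 as read and 0.10 after adjustment. Klf4, a factor related to Klf2, lay on the other side, at 0.33, and Zfp36, which encodes an mRNA-destabilising protein, was at 0.26 as read and -0.09 after adjustment with its probe of 21.7% GC.

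**Figure D4:**
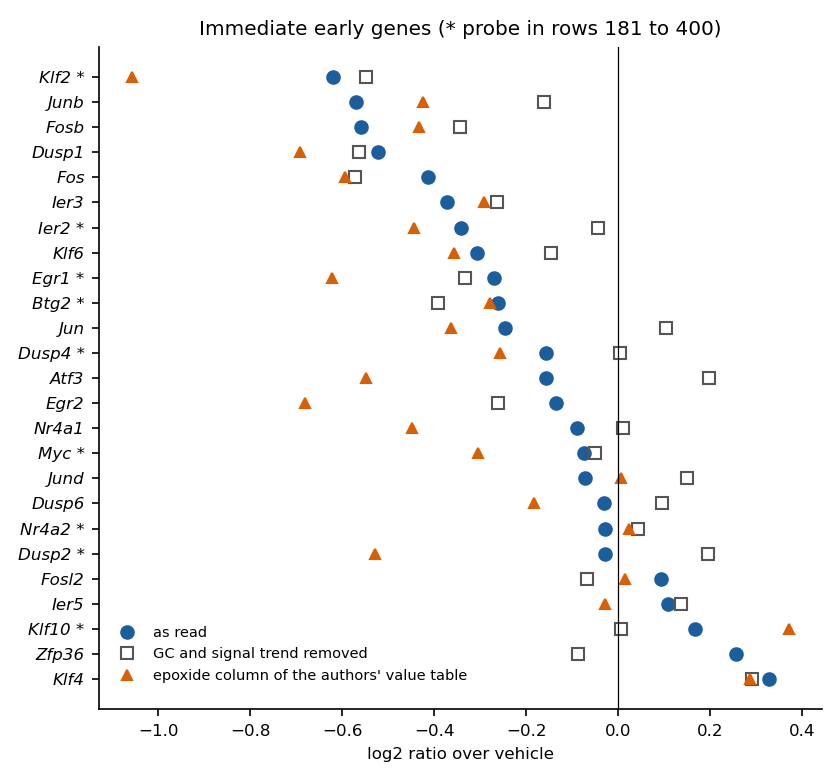
Log2 ratio over vehicle (x axis) of the 25 measured immediate early genes (y axis), as read (circles), with the GC and signal trend removed (squares) and in the epoxide column of the authors' value table (triangles). Of the circles 20 lie below 0, against 14 of the squares, and Klf2 lies lowest in the value table at -1.06.

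The promoters of these genes were searched for elements that signals act through. The window was 250 bases before to 50 after each start in RefSeq's mouse table (GRCm38.p6), on both strands. The cAMP response element TGACGTCA, bound by CREB factors, was in 2 of 23 promoters of the list, against 2.03% of 27025 promoters. The CArG box, bound by serum response factor, was in 3 of 23, against 1.81%. Of the matches, 1 window of 30 bases is shown for each measured gene that had one, on the strand of the gene and with the element in capitals. Egr2 had a further CArG match that is not shown.
Dusp1, GRCm38.p6 chr17:26508597-26508626, minus strand: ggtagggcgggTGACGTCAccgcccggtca
Btg2, GRCm38.p6 chr1:134079303-134079332, minus strand: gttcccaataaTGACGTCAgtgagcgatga
Egr2, GRCm38.p6 chr10:67537787-67537816, plus strand: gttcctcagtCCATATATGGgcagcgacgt
Zfp36, GRCm38.p6 chr7:28379267-28379296, minus strand: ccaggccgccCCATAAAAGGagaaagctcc
Of the genes shown, Dusp1 and Btg2, an antiproliferative factor (-0.26), were lower as read and adjusted, and so was Egr2 (-0.13 and -0.26). Zfp36 was lower only after adjustment. A match is a description of the window and no evidence that a factor binds there.

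Among cytokines and chemokines, 20 of 34 were measured, with a median of -0.10 (-0.04 after adjustment), and 1 was called, beside 2.28% over all genes. Ccl1, a T cell chemoattractant, read -2.42 with vehicle, -3.94 with epoxides and -3.82 with GW9662, a log2 ratio of -1.52 (2.88-fold lower), by 1 probe in rows 181 to 400. Ccl4, another chemokine gene with its probe in those rows, read 2.75, 2.19 and 2.21, so both treated arrays lay below vehicle. Il6 (0.02), Tnf (0.02), Il4 (-0.01) and Il13 (-0.11), cytokines that activated mast cells release, were level. Of the NF-kappa B genes, Nfkbiz, an inducible regulator, was at -0.54 (-0.28 after adjustment) and the inhibitor gene Nfkbia at -0.13.

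PPAR and RXR receptor genes were read lower by probes that were partly dim. Of 16 receptor and cofactor genes 14 were measured, 11 with a negative log2 ratio, with a median of -0.18 (-0.10 after adjustment). Pparg, at mm9 chr6:115440213-115440272 with 10 spots, read -3.75 with vehicle, -4.39 with epoxides and -3.94 with GW9662. The log2 ratio over the 8 spots that were not outliers on either array was -0.61 ± 0.14 (SD). The adjusted gene value was -0.30, and quantile normalization gave -0.34. This lies near the -0.75 of probes below background, and Rxra, the main RXR, was likewise at -0.69 by a dim probe. The probe for Rxrg lay above the median signal, at 1.22 with vehicle and 0.51 with epoxides, a log2 ratio of -0.71 (adjusted -0.61), while its other probe was not well above background. Ppara was at -0.49 and Ppard, the third PPAR, at -0.22, both by probes in rows 181 to 400.

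Genes that PPAR gamma activates in fat cells did not stand apart from all genes by their median. Of 26, 15 were measured, with a median of -0.08 (-0.02 after adjustment) and none called, and the classic targets Fabp4, Cd36, Plin1 and Adipoq were not well above background on both arrays. Aqp7, a glycerol channel, was at -0.77 by a dim probe and Plin4, a lipid droplet protein, at -0.62 (-0.04 after adjustment). Angptl4 (-0.05), Plin2 (-0.03) and Fabp5 (0.05), targets of several PPARs, were level.

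No PPAR alpha target or fatty acid oxidation gene was called on the array labelled epoxides, and 4 were called higher in the value table's epoxide column, where 0.355% of all genes were called higher and 0.469% lower. Of 34, 27 were measured, with a median of -0.03 (0.03 after adjustment). The lowest was Hadha, a subunit of the mitochondrial trifunctional protein, at -0.60 (adjusted -0.28) by a probe in rows 181 to 400, and Cyp4a10 (-0.42) and Cyp4a31 (-0.38) were also negative. Cpt1a, the gate enzyme of mitochondrial fatty acid oxidation, read 1.49 with vehicle, 1.47 with epoxides and 2.32 with GW9662 by 10 spots of 1 probe, and its second probe read -3.58, -3.49 and -2.50. Cyp4a12a, a fatty acid hydroxylase, read -0.16, -0.18 and 1.37. In both genes the array labelled GW9662 stood alone. The value table's epoxide column therefore gave 0.83 for Cpt1a, 1.53 for Cyp4a12a, 1.40 for Cyp4a12b, 1.44 for Cyp4a31 and 1.21 for Cyp4a10. Besides exocytosis and interferon genes, this was the only list in which it called a gene higher. The probes used for Cyp4a12a, Cyp4a12b and Cyp4a31 lie in rows 181 to 400. Another measured probe of Cyp4a31 read -3.48 with vehicle and -3.68 on the array labelled GW9662. Another measured probe of Cyp4a10 read -3.94 and -4.14, so neither of these probes was higher there.

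Few enzymes that make or open fatty acid epoxides could be read. Of 22 genes, 9 were measured, and Ephx2, the soluble epoxide hydrolase that turns these epoxides into diols, was not well above background on both arrays. Ephx1, the microsomal hydrolase, was at 0.01 by its brighter probe and at -0.92 by the other, both in rows 181 to 400. Cyp2c37 was at -1.15, also in those rows, Cyp2c38 at -0.70 and Ephx3 at -0.56, all dim, and Por, the reductase that serves cytochrome P450, at 0.20. Of the PAF and phospholipase genes, 15 of 21 were measured, with a median of -0.03. Pla2g7, the secreted PAF hydrolase, was at 0.39 (0.22 after adjustment) and Pla2g4a, which releases arachidonic acid, at 0.19. Of the prostaglandin and leukotriene genes, 14 of the 16 measured were negative as read and 8 after adjustment, among them Alox5 at -0.25 and -0.07.

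Several broad groups had medians that changed sign with the adjustment. Of 37 ribosomal protein genes, 34 had a negative log2 ratio, with a median of -0.32. Their probes had a median GC content of 45%, against 41.7% over all measured genes. After adjustment for GC content and signal together the median was 0.03 with 21 positive. Actin and integrin genes went from a median of -0.14 with 25 of 29 negative to 0.05, and glycolysis and hypoxia genes from -0.14 to 0.04. G2 and M phase genes were the 1 list with a positive median as read, 0.03 with 20 of 29 positive, and 0.11 after adjustment. The mitotic kinase gene Cdk1 within it was at 0.62 by a probe of 18.3% GC, which became -0.13 after adjustment. Over the 34 lists, 33 medians were negative as read and 17 after adjustment.

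**Figure D5:**
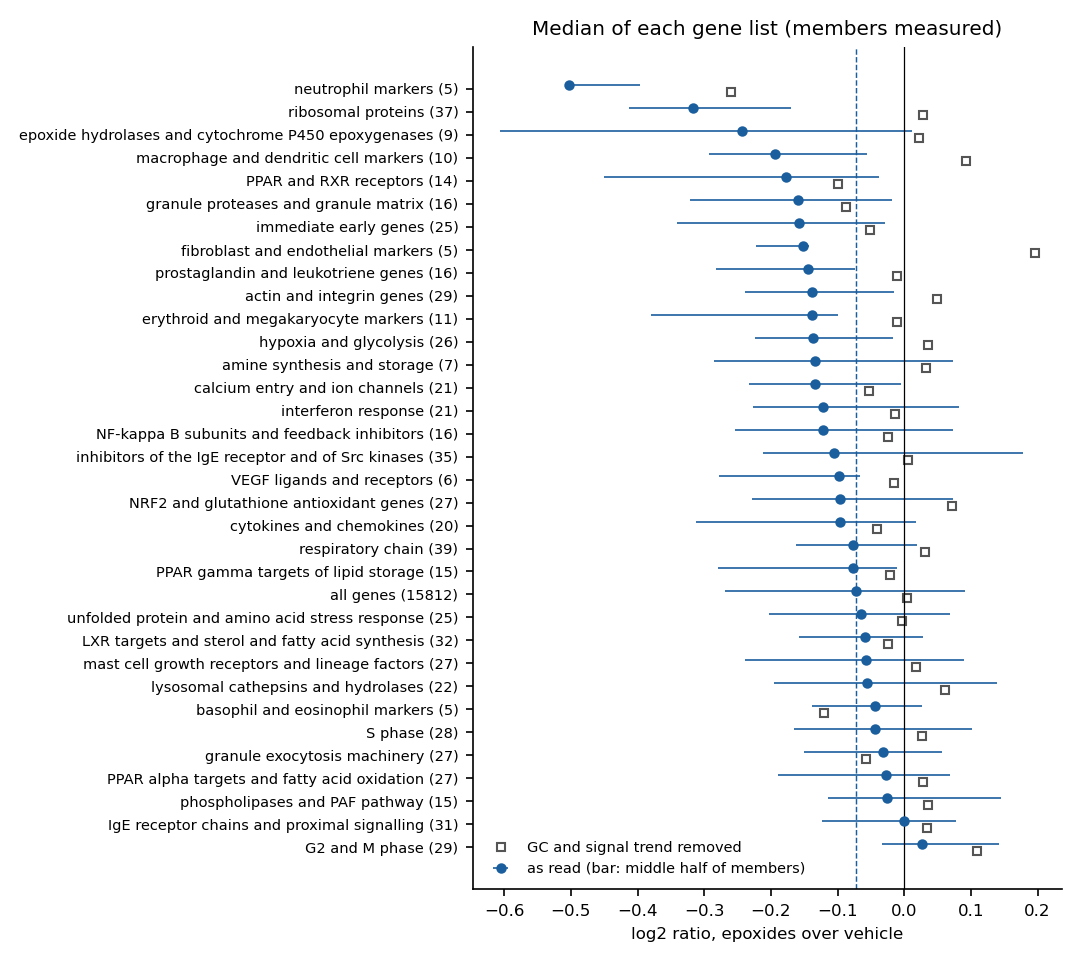
Median log2 ratio of epoxides over vehicle (x axis) of each gene list with at least 5 measured genes (y axis, number measured in brackets) and of all genes, as read (circles, with bars from the lower to the upper quartile) and with the GC and signal trend removed (squares). The dashed line is the median of all genes, -0.07; ribosomal protein genes move from -0.32 to 0.03.

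Markers of other cells were read lower in part. The T, B and NK cell markers measured were Cd3e (-1.09), Prf1 (-0.83), Nkg7 (-0.64) and Cd4 (-0.56), all lower with epoxides. Their adjusted log2 ratios were -0.95, -0.44, -0.53 and -0.46. Cd4 was read by a single spot, and its other probe, spotted 10 times, was not well above background on any array. The other measured probe of Nkg7 gave -0.22. Cd3e, a T cell receptor chain, read -0.31 with vehicle, -1.40 with epoxides and -0.61 with GW9662. The summed linear signal of that list on the array was 4.16 times the 75th percentile with vehicle, 2.49 with epoxides and 3.96 with GW9662. Of the 5 neutrophil markers measured, Lcn2 (-0.76), Elane, neutrophil elastase (-0.51), Csf3r, the G-CSF receptor (-0.50), and Camp (-0.40, adjusted 0.01) were negative and Mmp8 (0.10) was not. Their list's summed signal was 50.6, 35.7 and 45.1 in the same order, of which Csf3r alone gave 48.6, 34.3 and 42.9. The files place the Csf3r probe on chromosome 19, while RefSeq has the gene on chromosome 4. For macrophage and dendritic cell markers it was 2.86, 2.89 and 2.91. The part of these cells in the ratios of other genes was not tested.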

How the data were processed

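Per the file headers, the arrays were read with Agilent Feature Extraction 11.5.1.1, and the processed signal is an intensity, background-subtracted and not scaled between arrays. The authors' deposited value table holds a linear ratio to the 75th percentile of each array. Here the log2 75th percentile of the 43020 non-control spots was subtracted from log2 intensity, outlier spots were left out (230 on vehicle, 221 on epoxides), copies were averaged, and a gene was read by its brightest probe over the 3 arrays. No spot was saturated. Well above background held for 52.3% of spots with vehicle and 54.6% with epoxides. Of 39429 probes, 28324 were named through RefSeq accessions and 1402 of them changed symbol. Probe coordinates are mm9, with no annotation of that build used here, so exon and UTR positions are not given.

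Members, lists (34, with 678 genes measured), rules and alternatives were chosen with earlier results of these data known. Named genes are those 2-fold apart with and without the rows and trend (up to 15 a side), those called at or above the median signal, list members farthest from 0, the study's key genes (Srcin1, Pafah2, Pparg, Kdr and others), and examples chosen after their values were seen. Alternatives used limma 3.58.1 in R 4.3.3 (normexp, offset 50) and Python 3.11.15. The steps were run on simulated arrays whose trend had the form that the fit assumes. This does not check whether that form holds on these arrays.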

Additional observations from a re-analysis of the deposited data

How the results depend on the processing

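The median of all genes was -0.07 as read and lay between -0.08 and 0.01 under every alternative but the one with no filter on dim probes, at -0.32. The 34 genes at least 2-fold higher and 327 lower became 16 and 127 with normexp background correction, 63 and 140 with quantile normalization, 55 and 184 with cyclic loess, 60 and 114 after adjustment for GC content and signal, 14 and 121 without rows 181 to 400, and 3 and 8 at or above the median signal. With rows left out and the trend removed, 21 were lower and 23 higher. With no filter on dim probes there were 590 and 2366, and at 1.5-fold 212 and 1398. The value table's columns gave 56 and 74. Of the 34 higher genes, 33 were measured there and 1 was again called higher. Of the 327 lower genes, 303 were measured there and 58 were again called lower. Genes called higher as read whose direction these columns turned included Atp6v1b2 (-0.044), D930028M14Rik (-0.23), ENSMUST00000172123 (-0.24), Gm9924 (-0.18), Ifna2 (-0.35) and Nkpd1 (-0.12). Smaller ratios changed sign too, such as Camp, at -0.40 as read and 0.26 there. The causes were not tested, beyond the genes lost by construction. Medians of lists changed sign in 18 of 34 with rows left out and trend removed, 16 with the trend alone, 12 with quantile normalization and 11 with cyclic loess. No paired analysis was possible because each condition has 1 array. With that number, error between cultures, labellings and hybridisations is unknown, and signals near background set only bounds.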

Other observations

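Lysosomal genes were not described above. Of 24 cathepsin and hydrolase genes, 22 were measured, with a median log2 ratio of -0.06 (0.06 after adjustment) and none called. Ctsk, cathepsin K, read -3.61 with vehicle, -3.06 with epoxides and -3.21 with GW9662, and Ctss, cathepsin S, read -2.49, -2.06 and -2.18, so both treated arrays lay above vehicle. Ctsk was at 0.54 as read, 0.56 after adjustment and 0.40 in the value table's epoxide column. The bulk cathepsin genes Ctsb (-0.03) and Ctsd (-0.30, adjusted 0.17) did not share this.

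Of 22 calcium entry and ion channel genes, 21 were measured, 16 with a negative log2 ratio as read and 15 after adjustment, with medians of -0.13 and -0.05. The store-operated channel genes Orai1 (-0.13) and Stim1 (-0.11) were within 1.5-fold, and Slc8a1, the sodium and calcium exchanger, was at -1.08 by a dim probe in rows 181 to 400. NRF2 and glutathione genes had a median of -0.10 with 16 of 27 negative as read, and of 0.07 with 18 positive after adjustment. Interferon response genes had a median of -0.12 and -0.01.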
